A study of Mus musculus with 10 samples.

Results

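The subunits of the Polycomb repressive complex PRC2 and the gene Polr2m were followed in mouse leukemia cells in which miR-139 was switched on. They were 10 genes chosen by name, because the study links PRC2 and POLR2M to silencing of the Mir139 locus: Ezh1, Ezh2, Eed, Suz12, Jarid2, Mtf2, Phf19, Rbbp4, Rbbp7 and Polr2m. All 10 of 10 had at least 10 counts in total, among 52550 gene rows of which 25799 held no count in any library. The question asked of them was whether the transcripts of these repressors change once miR-139 is restored.

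The cells were hematopoietic stem and progenitor cells (HSPCs) from WT C57BL/6 mice, transformed in culture by a retrovirus carrying the MLL-AF9 fusion oncogene. All of them, controls included, carried MLL-AF9. In the MLL-AF9-i139 clones a doxycycline (DOX)-inducible lentiviral vector expresses miR-139. In the MLL-AF9-ieGFP control clone the inducible vector expresses eGFP instead. The protocol gives a tetR-KRAB repressor for the MLL-AF9-i139 cells and does not describe the making of the eGFP clone separately. The libraries were made from total RNA depleted of ribosomal RNA. MLL-AF9-i139 without DOX and MLL-AF9-i139 with DOX (5 µg/mL) held 3 libraries each, 1 for each of clones 1, 2 and 3. DOX was given for 48 h to clones 1 and 2 and for 72 h to clone 3, so a property of clone 3 and the longer treatment cannot be told apart. No time is given for the untreated cultures of these clones. MLL-AF9-ieGFP without DOX and with DOX (5 µg/mL) held 2 libraries each, at 48 h and 72 h, which are cultures of 1 clone and not separate clones. Total counts ranged from 35133308 to 47089725 per library. In the 10 libraries the myeloid markers Kit and Mpo were at 132 to 172 and 414 to 1669 CPM (counts scaled to a common total per library). Cd34 was at or near 0 in every library, with at most 0.418 CPM. The summed level of the T cell markers was at most 0.668 CPM and that of the B cell markers at most 1.62 CPM, and the erythroid and megakaryocyte markers summed to between 3.61 and 4.41 CPM.

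PRC2 places methyl groups on lysine 27 of histone H3, a mark of silenced genes. Its catalytic subunit is EZH2 or EZH1, of which EZH2 is typical of dividing cells and EZH1 is also found in resting and differentiated cells. EED and SUZ12 are the other core subunits, RBBP4 and RBBP7 are histone-binding subunits shared with other chromatin complexes, and JARID2, MTF2 and PHF19 are accessory subunits that help to bring the complex to chromatin. POLR2M (also known as GDOWN1) is a protein that binds RNA polymerase II and is linked to paused transcription.

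The sequences of the induced microRNA are shown to identify its arms. Capitals mark the seed, bases 2 to 8 of the mature RNA, as RefSeq gives them for GRCm38.p6 (chr7:101475382-101475403 and chr7:101475418-101475439, both on the plus strand).
miR-139-5p: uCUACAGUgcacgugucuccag
miR-139-3p: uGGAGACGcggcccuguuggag

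The longest annotated 3′ UTR of each of the 10 genes was searched for 7- or 8-base matches to the miR-139-5p seed, on the transcript strand (ACTGTAGA, ACTGTAG and CTGTAGA). The UTRs were between 402 bases (Ezh2) and 2992 bases (Rbbp4) long. None of the 10 held a match, whereas 3037 of 13987 tested genes with an annotated 3′ UTR (21.7%) did. With the 6-base match CTGTAG counted too, 5 of the 10 held one (Ezh1, Jarid2, Mtf2, Phf19 and Rbbp4), against 35.8% of all. A match is a description, and the absence of these letters says nothing of other ways in which the microRNA could act.

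The catalytic subunits differed in opposite directions between libraries with and without DOX. Ezh1 (chr11:101191115-101226463, minus strand) was at 22.2, 24.4 and 23.4 CPM in clones 1, 2 and 3 without DOX and at 37.8, 40.4 and 26.0 CPM with DOX. The 3 libraries with DOX were all above the 3 without. In MLL-AF9-ieGFP it was at 24.4 and 20.5 CPM without DOX and at 24.3 and 23.2 CPM with DOX, at 48 h and 72 h. Clones 1 and 2 with DOX thus stood above each of the other 8 libraries, and clone 3 with DOX stood close to them.

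Ezh2 (chr6:47530139-47595341, minus strand) went the other way, at 162, 147 and 162 CPM without DOX and at 113, 106 and 140.1 CPM with DOX. The 3 libraries with DOX were all below the 3 without. In MLL-AF9-ieGFP it was at 155 and 136 CPM without DOX and at 149 and 140.4 CPM with DOX, so that the control clone with DOX lay within its own range without DOX.

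**Figure D1:**
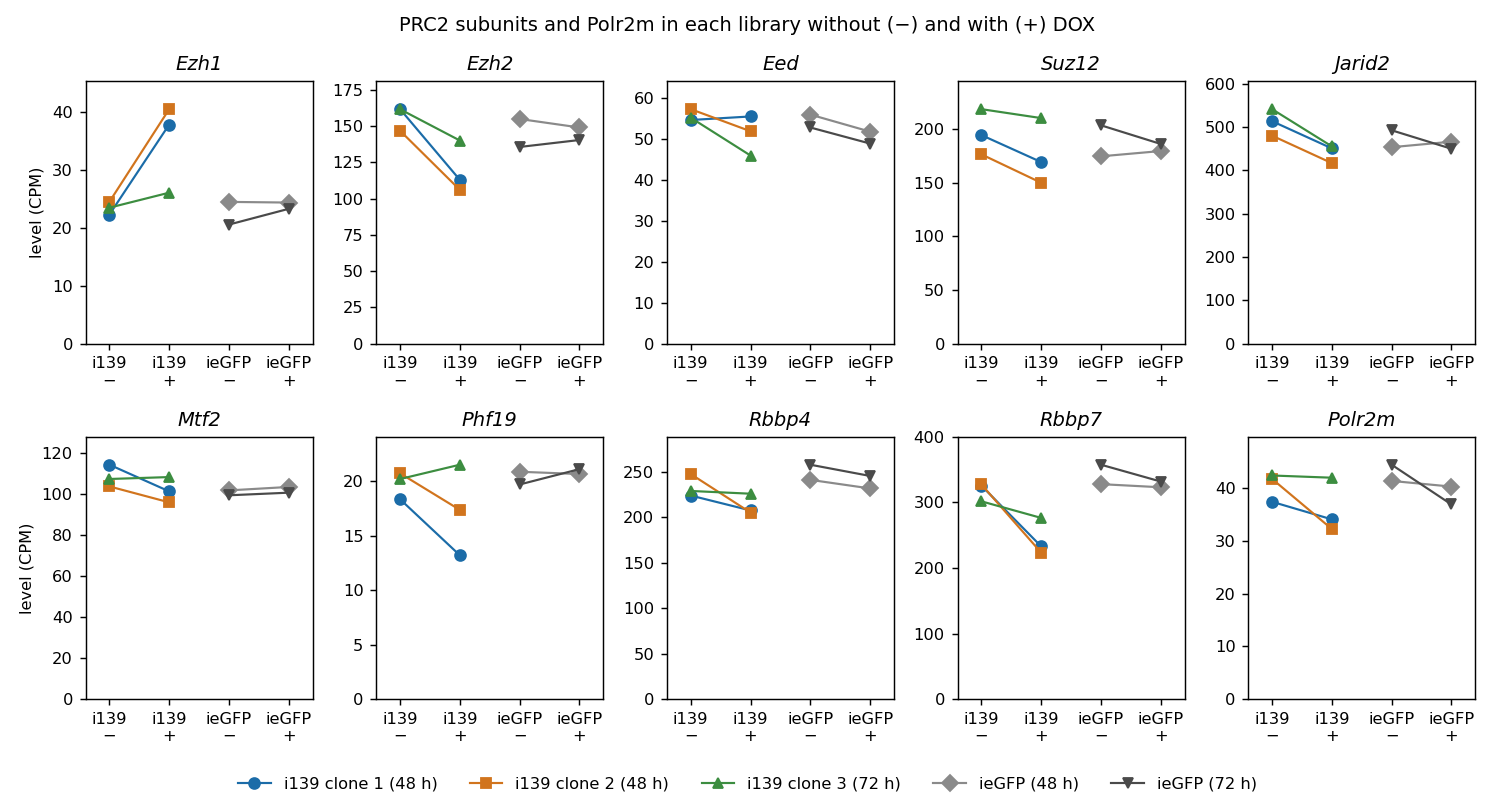
Level of each of the 10 genes in CPM (vertical axes, from 0) in every library, by construct without (−) and with (+) DOX. Lines join libraries of 1 clone or 1 culture time, and the times in the key are those of the DOX treatment. Ezh1 is higher with DOX in clones 1 and 2 (37.8 and 40.4 CPM) than in any other library, and Ezh2 and Rbbp7 are lowest in the same libraries.

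The test across 19223 genes (the quasi-likelihood test of edgeR, p-values adjusted by the Benjamini-Hochberg method, n = 3 against 3) was run without and with the clone as a block. Without the block none of the 10 genes passed an adjusted p of 0.05, as 12 of all genes tested did (0.0624%). Of the 10, Ezh1, Ezh2 and Rbbp7 had an unadjusted p under 0.05, against 20.6% of all genes. With the block, which compares each clone with itself, Ezh1 rose by 0.56 (SE 0.14) on the log2 scale, with an edgeR adjusted p of 0.0446, and was at 0.59 (SE 0.17) with an adjusted p of 0.133 without it. Ezh2 fell by 0.39 (SE 0.09) with the block, with an edgeR adjusted p of 0.0389, against a log2 fold change of -0.38 (SE 0.12) and an adjusted p of 0.152 without it. The remaining 8 genes passed in neither fit. With the block 12.4% of all genes passed, 7.05% upward and 5.33% downward, so 2 of 10 genes is a share close to the background.

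Both calls depended on which clones were in the fit. Without clone 3 the unblocked edgeR fit gave Ezh1 an adjusted p of 0.0026 and Ezh2 one of 0.0107, in a setting in which 21.7% of all genes passed. With the block on these 2 clones 8 of the 10 genes passed, all but Eed and Mtf2, but so did 43.4% of all genes. Without clone 1 or clone 2 neither gene passed, with the block or without it, and the log2 fold changes kept their signs, from 0.44 to 0.49 for Ezh1 and from -0.35 to -0.33 for Ezh2. DESeq2, run on the same 6 libraries, called Ezh1 (adjusted p = 0.0335) and not Ezh2 (adjusted p = 0.0821), with 8.09% of all genes called.

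Within clones the change in Ezh1 was 0.76 in clone 1, 0.72 in clone 2 and 0.15 in clone 3, as differences of log2 CPM. For Ezh2 these differences were -0.52, -0.47 and -0.21. Both genes therefore changed in the same direction in each clone and least in clone 3. In MLL-AF9-ieGFP the differences at 48 h and 72 h were -0.0067 and 0.18 for Ezh1 and -0.056 and 0.050 for Ezh2, so clone 3 and the 72 h control culture had Ezh1 changes of like size.

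**Figure D2:**
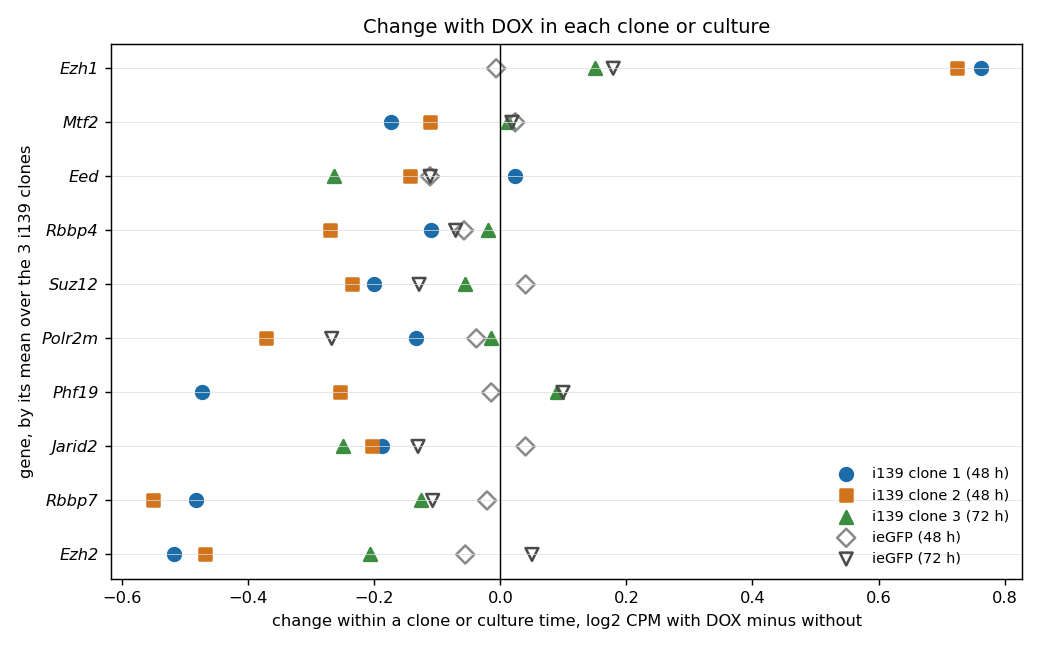
Difference in log2 CPM with DOX minus without (horizontal axis), for each gene (rows) in 3 MLL-AF9-i139 clones (filled symbols) and at 2 culture times of MLL-AF9-ieGFP (open symbols). Ezh1 stands to the right at 0.76 and 0.72 in clones 1 and 2, Ezh2 and Rbbp7 to the left, and clone 3 lies nearer to 0 than the other clones for 8 of the 10 genes.

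Since both enzymes can fill the same place in the complex, their ratio was measured too. The log2 ratio of Ezh1 to Ezh2 was -2.75 ± 0.14 without DOX and -1.80 ± 0.55 with DOX (SD, n = 3 clones each), a difference of 0.94. An exact permutation test, two-sided, gave p = 0.1, which is the smallest p that 3 against 3 can give, and an exact sign-flip test within the 3 clones gave its own smallest value, p = 0.25. Because Ezh1 was higher and Ezh2 lower with DOX in every clone, without overlap of the groups, both outcomes were fixed beforehand. They add nothing to the values of the single genes. Per kilobase of exon, Ezh1 made up 11.8% ± 1.04 of the sum of both genes without DOX and 21.0% ± 5.90 with DOX. The single values with DOX were 23.1%, 25.5% and 14.3% in clones 1, 2 and 3. In MLL-AF9-ieGFP the share stayed between 12.0% and 12.9% in all 4 libraries, so clone 3 with DOX was above the control clone by a small margin and clones 1 and 2 by a wide one. The sum of both genes was 26.6 ± 1.16 CPM per kilobase without DOX and 22.6 ± 1.67 with DOX, a level in which Ezh2 was the larger part in every library.

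**Figure D3:**
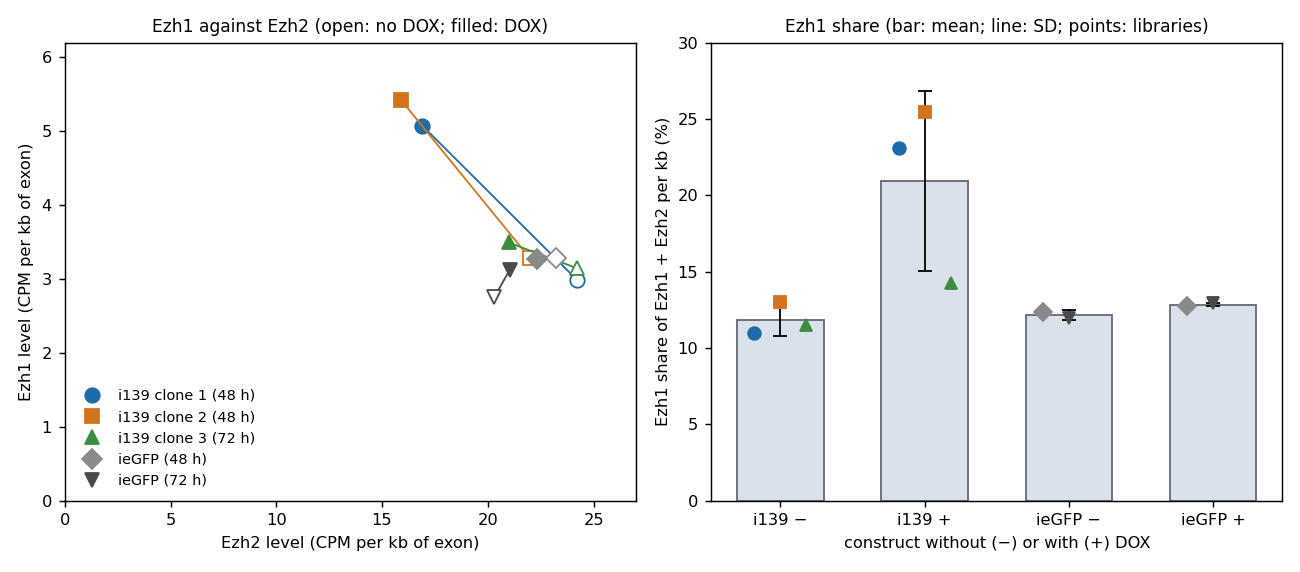
Left, Ezh1 against Ezh2 in each library, both in CPM per kilobase of exon, with open symbols without DOX and filled symbols with DOX. Right, the Ezh1 share of the sum of both (%), with bars for the mean, lines for the SD and points for libraries: it is 23.1% and 25.5% in clones 1 and 2 with DOX and at most 14.3% in the other 8 libraries.

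The other core subunits showed smaller differences. Suz12 (chr11:79993106-80034123, plus strand) was at 195, 177 and 219 CPM without DOX and at 169, 150.1 and 210.4 CPM with DOX. The order of the clones was the same in both conditions, and the groups overlapped. Its log2 fold change was -0.14 (SE 0.14), with an edgeR adjusted p of 0.608, and -0.15 (SE 0.08) with the block, adjusted p = 0.234.

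Eed (chr7:89954654-89980983, minus strand) was at 54.7, 57.4 and 55.3 CPM without DOX and at 55.6, 52.0 and 46.0 CPM with DOX. It was the gene of the 10 in which clone 3 was the farthest below its untreated library, by -0.26 in log2 CPM, while clone 1 was at 0.023. Its log2 fold change was -0.11 (SE 0.11, edgeR adjusted p = 0.595), with a 95% interval from -0.36 to 0.13. In MLL-AF9-ieGFP the value was the same, -0.11.

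Of the histone-binding subunits, Rbbp7 (chrX:162760402-162779092, plus strand) was at 326, 327 and 302 CPM without DOX and at 233, 223 and 276 CPM with DOX. The groups did not overlap. In MLL-AF9-ieGFP it was at 328 and 357 CPM without DOX and at 323 and 332 CPM with DOX, each above every MLL-AF9-i139 library with DOX. The log2 fold change in MLL-AF9-i139 was -0.37 (SE 0.11), with an edgeR adjusted p of 0.129, and 0.0515 with the block, so Rbbp7 stopped just short of the threshold. It passed when all 10 libraries shared 1 estimate of the spread (adjusted p = 0.0417, with 6.09% of all genes passing) and when clone 3 was left out (adjusted p = 0.00656), and it did not pass without clone 1 or 2.

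Rbbp4 (chr4:129307100-129335370, minus strand) was at 224, 248 and 229 CPM without DOX and at 208, 205 and 226 CPM with DOX, so that clone 3 with DOX lay within the untreated range. Its log2 fold change was -0.12 (SE 0.09, edgeR adjusted p = 0.482), with a 95% interval from -0.33 to 0.087. Its exons share 18% of their length with exons of other genes, among them Sync on the opposite strand, and the strand setting of the counting is not given in the sources used here. The share was 6.93% for Mtf2, 6.82% for Eed, 5.98% for Rbbp7, 3.6% for Suz12 and 2.61% for Ezh2, and 0% for Ezh1, Jarid2, Phf19 and Polr2m.

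Among the accessory subunits Jarid2 (chr13:44729474-44921643, plus strand) was at 514, 480.3 and 542 CPM without DOX and at 451, 417 and 456 CPM with DOX. All 3 libraries with DOX were below all 3 without. It was the one gene in which the 3 clones changed to a like extent, by -0.19, -0.20 and -0.25 in log2 CPM. The log2 fold change of -0.20 did not pass, with an edgeR adjusted p of 0.270 and of 0.110 with the block. In MLL-AF9-ieGFP the differences were 0.040 at 48 h and -0.13 at 72 h.

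Mtf2 (chr5:108065674-108109004, plus strand) was at 114, 104 and 107 CPM without DOX and at 101, 95.8 and 108 CPM with DOX. Phf19 (chr2:34893757-34914026, minus strand) was at 18.3, 20.7 and 20.2 CPM without DOX and at 13.2, 17.4 and 21.5 CPM with DOX. In both genes clones 1 and 2 were lower with DOX and clone 3 was slightly higher, and the groups overlapped. The edgeR adjusted p was 0.671 for Mtf2 and 0.625 for Phf19. The interval for Phf19, from -0.59 to 0.24 on the log2 scale, leaves room for a change in either direction.

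Polr2m (chr9:71478437-71485935, minus strand) was at 37.5, 41.8 and 42.5 CPM in clones 1, 2 and 3 without DOX and at 34.1, 32.3 and 42.0 CPM with DOX. Clone 3 was at nearly the same level with and without DOX, and the groups overlapped. The log2 fold change was -0.15 (SE 0.13, edgeR adjusted p = 0.533), with a 95% interval from -0.45 to 0.14, and with the block it was -0.16 (SE 0.10, adjusted p = 0.307). In MLL-AF9-ieGFP Polr2m was at 41.4 and 44.5 CPM without DOX and at 40.3 and 37.0 CPM with DOX, a log2 fold change of -0.15 as well. The difference between the constructs in the response of Polr2m was -0.014 on the log2 scale, with a 95% interval from -0.42 to 0.39. The exons of Polr2m overlap no other gene, and the neighbouring gene Myzap held 0 counts in all 10 libraries.

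Seen together, 6 of the 10 genes were lower with DOX in each of the 3 clones (Ezh2, Suz12, Jarid2, Rbbp4, Rbbp7 and Polr2m), against 26.5% of all genes tested, and 1 was higher in each (Ezh1), against 27.3%. These counts are of signs only, and in clone 3 Rbbp4 was at -0.019 and Polr2m at -0.014 in log2 CPM. Rbbp4, Rbbp7 and Polr2m were also lower with DOX at both times in MLL-AF9-ieGFP. There Ezh2, Suz12 and Jarid2 changed in opposite directions at 48 h and 72 h. The groups did not overlap for 4 of the 10 genes, Ezh1 above and Ezh2, Jarid2 and Rbbp7 below, where the share among all genes was 24.9% (12.6% above and 12.3% below). The median log2 fold change of the 10 was -0.15 and 9 of 10 values were below 0, beside a median of 0.013 over all genes. Clone 3 had the smallest change for 8 of the 10 genes and for 56.7% of all genes.

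MLL-AF9-ieGFP and the interaction term set the differences beside those with DOX in 1 control clone. Their SEs and p-values hold no spread between control clones, and the construct and that clone cannot be told apart. In MLL-AF9-ieGFP none of the 10 genes passed, and none had an unadjusted p under 0.05. Over all 20269 genes of that fit 0 passed in edgeR (0%) and 1 in DESeq2, with 259 genes at an unadjusted p under 0.05 in edgeR. The 10 log2 fold changes lay between -0.15 (Polr2m) and 0.081 (Ezh1). For the interaction, the change in MLL-AF9-i139 minus that in MLL-AF9-ieGFP, the edgeR fit called none of the 10 and 1 of all genes (0.00493%). The difference was 0.49 (SE 0.25) for Ezh1, -0.38 (SE 0.18) for Ezh2 and -0.32 (SE 0.15) for Rbbp7 on the log2 scale. Their edgeR adjusted p-values were 0.572, 0.550 and 0.559. With the clone or culture time as a block the adjusted p fell to 0.227, 0.144 and 0.235, still above the threshold, with 0.187% of all genes passing. Without clone 3 these 3 genes passed, with adjusted p-values of 0.0206, 0.0490 and 0.0455, and 10.2% of all genes did.

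Levels between genes were compared per kilobase of exon, as means over the 10 libraries. Rbbp7 was the highest at 104 CPM per kilobase, followed by Jarid2 at 48.6, Suz12 at 37.7, Rbbp4 at 26.5, Ezh2 at 21.1, Mtf2 at 18.2, Polr2m at 16.2 and Eed at 13.9. Phf19 at 3.84 and Ezh1 at 3.59 CPM per kilobase were the lowest. The ranges over libraries were apart between Rbbp7 and Jarid2, between Suz12 and Rbbp4 and between Eed and Phf19, and overlapped between all other neighbours in this order. In bulk RNA, fewer cells that express a gene and less RNA per cell cannot be told apart.

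The genes whose levels ran most like those of 3 members were found by Pearson correlation of log2 CPM over the 10 libraries, among 10660 genes. These correlations share libraries and the difference between clones 1 and 2 with DOX and the rest, and are given as a description. For Ezh1 they were Inpp5j, Nbr1, N4bp2l1, Chfr and Kdm4a, with r from 0.987 to 0.993. For Ezh2 they were Polq, Ttc37, Hells, Fancm and Zfp930, with r from 0.974 to 0.990, of which Polq and Fancm encode DNA repair proteins and Hells a chromatin remodeler. For Polr2m they were Ssr3, Ybey, Nfyb, Rnf138 and Cbx5, with r from 0.923 to 0.954. Among the members themselves, Ezh1 ran against Rbbp7 (r = -0.96) and Ezh2 (r = -0.86), and Rbbp4 ran with Rbbp7 (r = 0.91). Eed had r between -0.33 and 0.37 with each of the other 9.

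Genes of the same pathways gave the setting for these values, counted in the fit with the clone as a block. Of 5 further accessory subunits of PRC2, 0 passed in edgeR or DESeq2, and 2 had an unadjusted p under 0.05 in the edgeR fit with the block, against 31.2% of all genes. Epop, an elongin-binding subunit, was nearest with a log2 fold change of -0.45 (edgeR adjusted p = 0.0582). Aebp2, which helps PRC2 to bind DNA, was at 0.016. Of 22 measured genes of PRC1, the complex that ubiquitinates histone H2A, 0 passed in either tool. In edgeR 9 had an unadjusted p under 0.05, against the same 31.2%, and the median was 0.0012. L3mbtl2, Phc2, Cbx7 and Cbx2 were nearest to the threshold, of which Cbx2 held only 0 to 18 counts per library.

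Of 6 enzymes and partners that remove these marks, 1 rose and 0 fell with the block, against 7.05% and 5.33% of all genes. This was Kdm6b, a demethylase of histone H3 lysine 27, with a log2 fold change of 0.50 (SE 0.12, edgeR adjusted p = 0.041). It was at 88.1, 96.0 and 110 CPM without DOX and at 131, 158 and 123 CPM with DOX. Kdm6a, the related demethylase on the X chromosome, was at 0.27 (adjusted p = 0.105). In edgeR without the block neither passed. In DESeq2, without a block, 1 of the 6 rose.

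Of the 14 subunits of RNA polymerase II and TFIIF, the enzyme that POLR2M binds and a factor that competes with it for that enzyme, 4 fell and 0 rose with the block, with a median of -0.22, against 5.33% and 7.05% of all genes. They were Polr2f (log2 fold change -0.60), Polr2h (-0.50), Polr2e (-0.40) and Polr2b (-0.31), with edgeR adjusted p-values from 0.0294 to 0.0461. Polr2f was at 51.0, 59.2 and 53.4 CPM without DOX and at 28.9, 35.3 and 44.0 CPM with DOX. None of these 4 passed in edgeR without the block. In DESeq2, without a block, 1 of the 14 passed. Of 14 factors that hold or release paused polymerase, 0 passed in edgeR with or without the block or in DESeq2. In edgeR with the block 3 had an unadjusted p under 0.05, against 31.2% of all genes, with Nelfa, Hexim2, Larp7 and Hexim1 nearest.

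**Figure D4:**
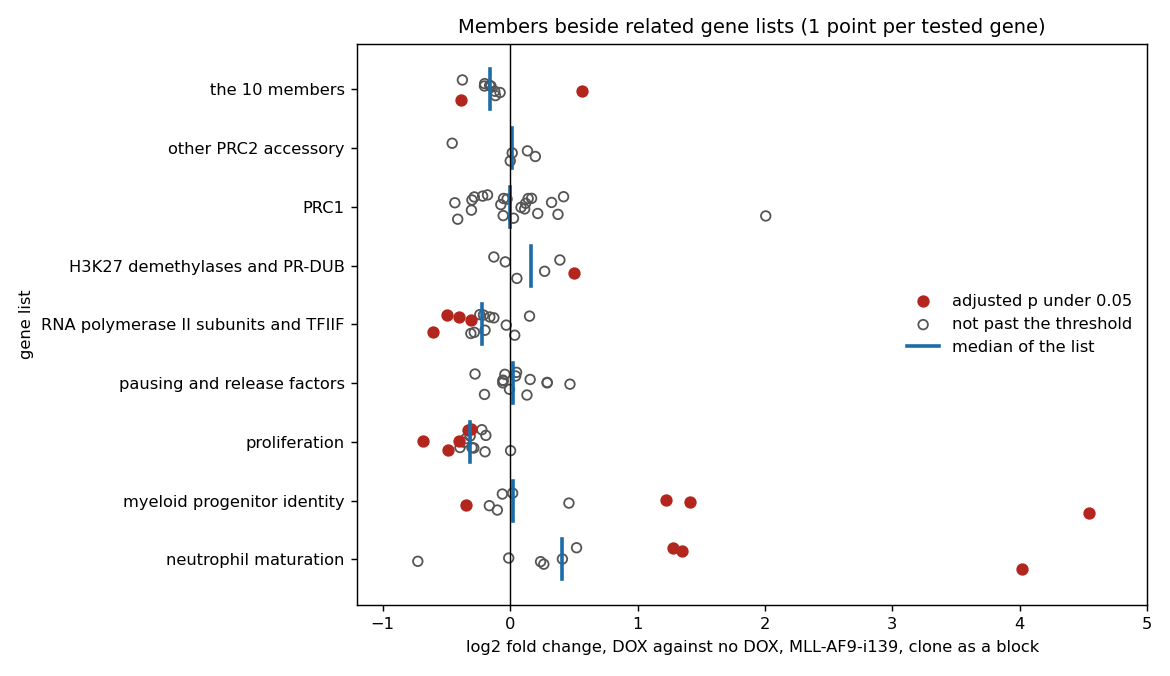
Log2 fold change with DOX in MLL-AF9-i139 with the clone as a block (horizontal axis), 1 point for each tested gene of each list (rows). Filled points passed an adjusted p of 0.05 and vertical lines are list medians: -0.16 for the 10 members, -0.22 for RNA polymerase II and TFIIF and -0.31 for proliferation genes.

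Levels of proliferation and maturation genes are given beside these values. Of 15 proliferation genes 5 fell with the block (Rrm2, Ccna2, Mcm6, Mcm3 and Mcm4) and 0 rose, with a median of -0.31, and in DESeq2, without a block, 3 passed. Of all genes 5.33% fell and 7.05% rose with the block. Mki67, a marker of cycling cells, was at 0.048, 0.10 and -0.18 in log2 CPM with DOX minus without in clones 1, 2 and 3. In edgeR without the block 0 passed, with 9 at an unadjusted p under 0.05, against 20.6% of all genes. Their summed level was 3826 to 4125 CPM without DOX and 3099, 3165 and 3692 CPM in clones 1, 2 and 3 with DOX, and 3854 to 4299.8 CPM in MLL-AF9-ieGFP. Clone 3 with DOX thus lay between clones 1 and 2 and the controls, while for Ezh2 it lay within the range of MLL-AF9-ieGFP. Of 9 tested genes of neutrophil maturation 3 rose (Csf3r, Ngp and Cxcr2), against 7.05% of all genes, and 6 did not pass. Among these 6 were Ltf, with differences of -0.20, 0.91 and 0.85 in clones 1, 2 and 3, Camp, with -0.15, 0.71 and 0.62, and S100a9, with 0.010, 0.16 and -0.25, all granule or cytosolic proteins of neutrophils. The summed level of the 10 listed genes was 167 to 247 CPM without DOX, 425, 414 and 264 CPM with DOX and 314 to 434 CPM in MLL-AF9-ieGFP. Of 9 myeloid progenitor genes 3 rose (Mpo, Fcgr3 and Cd34, the last from at most 1 count) and Hoxa9 fell, against 7.05% and 5.33% of all genes. Mpo, the myeloperoxidase of myeloid granules, was also higher with DOX in MLL-AF9-ieGFP, at 524 and 642 CPM without and 705 and 927 CPM with DOX, but did not pass there (log2 fold change 0.49, unadjusted p = 0.0422, edgeR adjusted p = 1). Itgam, the myeloid integrin CD11b, held 0 to 3 counts per library and was not tested, and 68.7% of its exon length is shared with exons of another gene. The part of these genes in the values of Ezh1, Ezh2 and Rbbp7 was not tested.

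The promoters of the 10 genes (300 bases around the RefSeq start, GRCm38.p6) were searched for the E2F letters TTTCCCGC, TTTGGCGC, TTTCGCGC and TTTGCCGC on both strands, since E2F factors are known to act on Ezh2 and replication genes. Elsewhere they were found in 744 of 32851 promoters in all (2.26%), a set not limited to genes expressed in these cells. Among the lists they were in 5 of 14 promoters of the proliferation genes and in 3 of 12 of RNA polymerase II and TFIIF. They were in 2 of 13 of the myeloid progenitor genes and in 0 of 27 of PRC1. Of the 10 genes, 3 of 13 promoters held them. For each, 30 bases are given 5′ to 3′ along the gene, with the letters in capitals, read on the opposite strand for Phf19 (chr6:47595009-47595038, minus strand, chr11:79992876-79992905, plus strand, and chr2:34914166-34914195, minus strand).
Ezh2: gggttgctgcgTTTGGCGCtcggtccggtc
Suz12: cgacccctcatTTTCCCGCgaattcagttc
Phf19: gtcaataattcGCGGGAAAacgcgaaaaag
Of these 3 genes only Ezh2 passed with the block on all 3 clones, and Rbbp7, Jarid2 and Polr2m held no such letters in the windows searched.

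Genes known to be silenced by PRC2 gave few values. Of 24 developmental genes and cell cycle inhibitors listed, 4 were tested and 0 passed in edgeR or DESeq2, with 0 at an unadjusted p under 0.05. Cdkn2a, a cell cycle inhibitor under Polycomb control, was at 26.6, 21.0 and 5.65 CPM without DOX and at 16.5, 13.6 and 6.63 CPM with DOX, and Cdkn2b was at 16.1, 7.55 and 4.97 CPM and at 11.8, 8.37 and 6.10 CPM. For both genes the spread over the clones was wider than the difference between the conditions. Within clones 1, 2 and 3 the differences in log2 CPM were -0.69, -0.63 and 0.23 for Cdkn2a. For Cdkn2b they were -0.45, 0.15 and 0.29, so the clones differed in direction for both genes. At the Mir139 locus itself, the Mir139 gene row held 0 counts in all 10 libraries, which allows a level of up to 0.0637 to 0.0854 CPM per library, and Pde2a held 1 count in all. Gm45837, a gene model on the same strand that spans Pde2a, held 125 to 287 counts per library. Of the exon length of Pde2a 64.3% is shared with exons of other genes, so its 1 count does not show that Pde2a was silent. The counts at this locus therefore offered no check that miR-139 was induced. The study measured this apart from these libraries, and reports by quantitative PCR that DOX raised both arms in MLL-AF9-i139 clones.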

How the data were processed

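Per the labels and the study's methods, the authors mapped reads to GRCm38 with STAR (2.5.3e), counted them per gene with featureCounts (1.6.0) with a GENCODE annotation, and deposited the raw, unnormalized counts. The table has 14 columns of other samples, which were not used. Here, edgeR 4.0.16 (R 4.3.3) with TMM normalization was applied, after genes under 10 counts in sum were dropped, to the 6 libraries of MLL-AF9-i139 with no block, and to all 10 libraries in 4 groups for MLL-AF9-ieGFP and the interaction. P-values were adjusted by Benjamini-Hochberg over all genes tested. Clone numbers in the labels pair libraries with and without DOX, and deviations from the group means correlated within clones (r = 0.38, 0.29 and 0.41), so blocked values are given beside results whose call they change. Alternatives were DESeq2 1.42.0, RLE size factors, other filters, the block, all 10 libraries, and each clone or culture time left out. Differences within clones are log2 CPM with a prior count of 2. Positions, exon lengths and 3′ UTRs were read from GENCODE M21, also on GRCm38, for 52403 of 52550 identifiers matched without version suffix. Scripts were tested on simulated data. Members and gene lists were chosen with earlier results of these data known. From each list at most 4 genes, those with the lowest p in the blocked fit, were to be named by rule. Kit, Mcm4, Mki67, Ltf, Camp, S100a9 and Itgam were added apart from this rule, after their values were seen. P-values measure the spread between these libraries. A search result for the miR-139-3p seed is not reported here.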

Additional observations from a re-analysis of the deposited data

How the results depend on the processing

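With 3 clones, the calls depended on how the spread was estimated. In MLL-AF9-i139 12 of all genes passed in the unblocked edgeR fit, 2381 with the replicate block, 562 without a filter on low counts, 2 with at least 10 counts in every library, 1556 in DESeq2 and 1234 with all 10 libraries, and 0 to 3981 with 1 clone left out. With the block and clone 1, 2 or 3 left out, 324, 580 and 7974 passed, an alternative added after the data were seen. Of the 10 members 0 passed in the unblocked fit, 2 with the replicate block, 1 in DESeq2 (Ezh1), 1 with all 10 libraries (Rbbp7) and 0 to 8 with 1 clone left out. The 8 came from the block on 2 clones alone, where 43.4% of all genes passed. The directions of the 10 members in MLL-AF9-i139 were the same in all 12 alternatives. In MLL-AF9-ieGFP 1 gene passed without a filter on low counts and 1 in DESeq2, neither a member. For the interaction 38 genes passed with the replicate block, 71 without a filter, 0 with at least 10 counts in every library, 83 in DESeq2 and 0 to 2011 with 1 clone or culture time left out, with 0 to 3 members. The block was the clone, or the culture time in MLL-AF9-ieGFP, and with all 3 clones it changed the call of no member other than Ezh1 and Ezh2. The log2 ratio of Ezh1 to Ezh2 differed by 0.78 to 1.24 with 1 clone left out, against 0.94. The cause of these differences was not tested.

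Signs turned for values near 0 that passed in no setting. In MLL-AF9-ieGFP with 1 culture time left out, the log2 fold change ran from -0.051 to 0.036 for Ezh2, from -0.0021 to 0.16 for Ezh1, from -0.14 to 0.045 for Suz12, from -0.15 to 0.045 for Jarid2 and from -0.0100 to 0.085 for Phf19. For the interaction with 1 clone or culture time left out it ran from -0.085 to 0.083 for Eed, from -0.20 to 0.0042 for Suz12, from -0.097 to 0.0028 for Rbbp4 and from -0.13 to 0.13 for Polr2m. Eed was at 0.0018 with RLE size factors, at 0.0085 with at least 10 counts in every library and at 0.0022 in DESeq2, and Polr2m was at 0.00044, 0.0055 and 0.00020 in the same order. At 3 counts in a library the floor was 0.0637 to 0.0854 CPM, below the level of each member in every library.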
